A study of Homo sapiens with 27 samples.

Results

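The 6 libraries described here are LN523 cultures of H1 cells, 3 collected at day 22 and 3 at day 2 of photoreceptor differentiation, out of 27 bulk RNA-seq libraries in the series. They were chosen by the laminin and the day in their labels, and library 1, 2 or 3 of each day came from sequencing lane 1, 2 or 3. H1 is a human embryonic stem cell line. LN523 is the recombinant laminin of chains α5, β2 and γ3, a form found in the matrix between photoreceptors. The labels give the coating as LN523 with LN323, whereas the methods of the study give LN523 with LN521, so the matrix is named here by its leading isoform. Cells were plated in NutriStem medium, and at day 2 a neural induction medium with SB431542, an inhibitor of TGFβ and NODAL receptors, and CKI-7, an inhibitor of casein kinase, was added. A photoreceptor medium followed, with retinoic acid, the γ-secretase inhibitor DAPT, which blocks Notch signalling, and the growth factors BDNF and CNTF. The day 2 libraries are therefore of cells on the matrix before induction and are labelled undifferentiated, and the day 22 libraries are labelled photoreceptor progenitors. The titles of the libraries number these days 0 and 20. The other groups used are LN323 and LN521 cultures of the same days, handled alike, and LN523 cultures of day 32.

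Pluripotent stem cells are held undifferentiated by a circuit of transcription factors around POU5F1, SOX2 and NANOG. The vertebrate eye forms from anterior neural plate that switches on the eye field factors, among them PAX6, RAX, SIX3, SIX6 and LHX2, and the optic vesicle then divides into neural retina and pigment epithelium, marked by MITF. Photoreceptors leave the cell cycle from retinal progenitors and switch on CRX first and the proteins of light detection much later.

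Total counts were 42473603, 36195867 and 27855193 in the day 2 libraries and 41764735, 40310675 and 34767018 in the day 22 libraries, and 69.7% of the non-zero counts were even, the pattern that counting the mates of a pair separately would give. No label says that the 3 libraries of a group came from separate cultures. The p-values measure the spread between libraries of a group, estimated over all 27 libraries of the series, and this spread may be technical. The day 22 library of replicate 2 stood apart. Among 17115 genes with a mean of at least 1 CPM, a count scaled to library size, at either day, 799 differed by more than 4-fold between replicates 1 and 2 of day 22 and 543 between replicates 2 and 3, against 40 between replicates 1 and 3, and 19 to 86 between the day 2 libraries. Replicate 2 of day 22 held more RNA of HOX and surface ectoderm genes and less of retinal transcription factors. It was the highest day 22 library in 42.7% and the lowest in 40.0% of genes with a mean of at least 1 CPM at either day, the shares to read the counts of members highest or lowest in it against. List counts that changed without it are given beside the lists, and log2 fold changes that moved by over 1.5 times when 1 library was left out are given with that value.

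From day 2 to day 22, cultures on LN523 lost POU5F1 and NANOG of the pluripotency circuit almost entirely, and SOX2 in part. They gained an eye field program and pigment genes, while genes of photoreceptor function stayed low. Genes of mesenchyme, BMP signalling and the retinoic acid system and HOX genes rose as well, with most HOX RNA in replicate 2 of day 22. Of 44852 genes tested with edgeR (quasi-likelihood, Benjamini-Hochberg), 9751 (21.7%) had an adjusted p under 0.05, of which 5180 (11.5%) rose and 4571 (10.2%) fell. Against a null of a 2-fold change, 4421 genes (9.86%) were called, 2610 up (5.82%) and 1811 down (4.04%). Many of the tested genes were close to 0. Among the 17115 genes at 1 CPM or more, 25.9% rose and 24.3% fell, which is the share to read lists of expressed genes against. The median log2 fold change over all genes tested was 0.02. Lists with many members under 1 CPM have no like share. Members at 1 CPM or more were 15 of 34 for phototransduction and 17 of 38 for HOX. They were 9 of 16 for lens, 5 of 12 for endoderm, 8 of 17 for proneural factors, 10 of 17 for ganglion cell genes and 8 of 13 for endothelium and blood. Without replicate 2 of day 22, 4832 of the 5180 rises and 3536 of the 4571 falls were still called. The falls numbered 2989 without replicate 3 of day 22 and 3247 without replicate 1, with 5075 and 5196 rises. With limma on the deposited TPM the split was 6571 up and 3424 down with a pseudocount of 1, and 7058 up and 3470 down with 0.1.

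**Figure D1:**
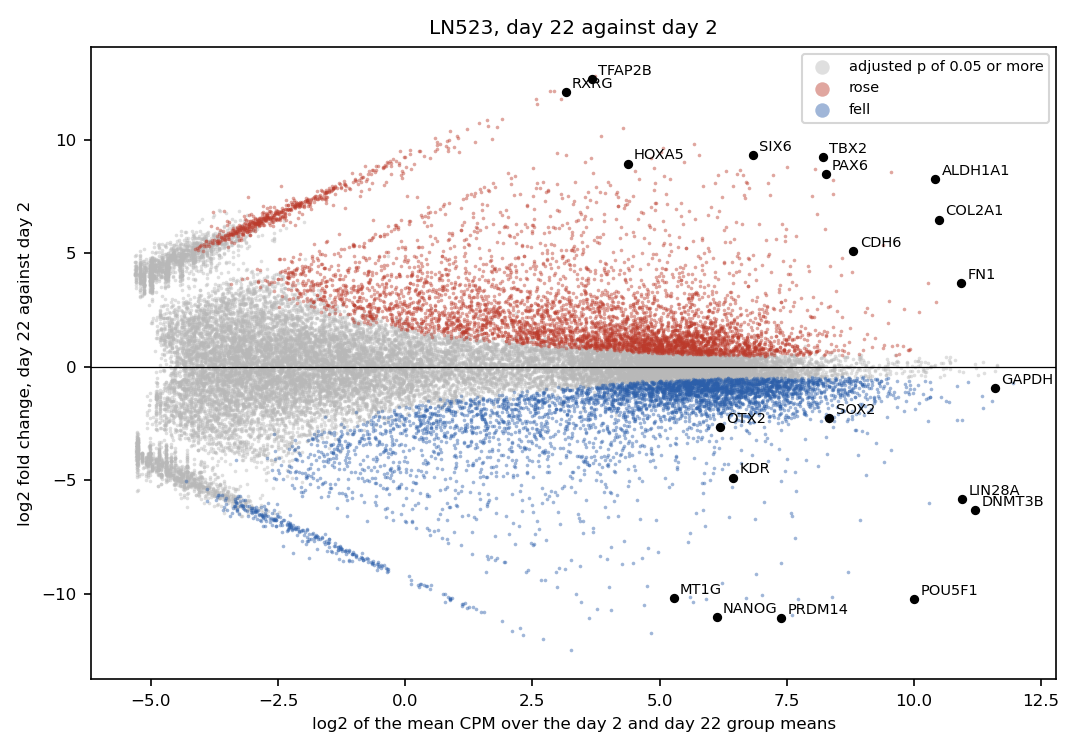
Each point is a gene with a mean of at least 0.05 CPM at day 2 or day 22, placed by the log2 of its mean CPM (x axis) and its fitted log2 fold change, day 22 against day 2 on LN523 (y axis). Red points rose and blue points fell at an adjusted p under 0.05, and the black points are named genes, with POU5F1 at -10.24 and SIX6 at 9.34; the diagonal bands at left are genes with 0 counts at one of the days.

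The loss was most complete among the pluripotency genes. Of 30 tested, 29 fell and 0 rose, with a median log2 fold change of -6.37, or -6.17 with the 3 genes that had 0 counts at a day held at their bound, and 28 of the falls passed the 2-fold test. All 29 falls were called again without replicate 2. POU5F1, which encodes OCT4 (chromosome 6, 31164337 to 31180731, GRCh38), was at 2205, 1973 and 1990 CPM in the 3 day 2 libraries and at 1.67, 2.26 and 1.2 CPM at day 22 (log2 fold change -10.24, standard error 0.83, edgeR adjusted p = 1.47e-14). The groups were far apart and the 3 day 22 libraries close to each other. NANOG, its partner in the circuit, went from 144, 143 and 131 CPM at day 2 to 0.232, 0.0238 and 0 CPM at day 22 (log2 fold change -11.02, and -11.65 without replicate 1 of day 2 and -12.60 without replicate 1 of day 22). PRDM14, a repressor that holds off differentiation, went from 431, 204 and 369 CPM at day 2 to 0.278, 0.0951 and 0.114 CPM at day 22 (log2 fold change -11.06). The same near-complete loss was seen for VRTN (log2 fold change -10.93), ZSCAN10 (log2 fold change -9.13), DPPA4 (log2 fold change -9.03), DPPA2 (log2 fold change -8.80, and -9.72 without replicate 1 of day 2 and -12.22 without replicate 1 of day 22) and TDGF1, the co-receptor of NODAL (log2 fold change -10.16), all among the 15 largest falls of protein-coding genes. UTF1 had 0 counts in all 3 day 22 libraries and a mean of 10 CPM at day 2, so it was at least 409.5-fold lower. KLF17, a gene of the earlier naive state, was at a mean of 0.117 CPM at day 2 and did not pass the test.

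A few members of the list fell less. SOX2, which neural progenitors also use, was at 531, 463 and 593 CPM at day 2 and 127, 41.8 and 188 CPM at day 22 (log2 fold change -2.27, standard error 0.29, edgeR adjusted p = 8.44e-09). Even its highest day 22 library was under its lowest day 2 library. LIN28B fell with a log2 fold change of -1.62. LIN28A, which blocks maturation of let-7 microRNAs, went from 3742, 4075 and 3860 CPM at day 2 to 154, 19.1 and 56.4 CPM at day 22 (log2 fold change -5.82, standard error 0.46, edgeR adjusted p = 7.37e-15, and -6.74 and -5.19 without replicates 1 and 2 of day 22), lowest in replicate 2. In the developmental timing group of 8 genes to which both belong, 6 fell, among them TRIM71 (log2 fold change -3.37), HMGA1 (log2 fold change -2.34), IGF2BP1 (log2 fold change -1.35) and IGF2BP3 (log2 fold change -1.43). The other 2 rose. HMGA2, a chromatin protein of fetal progenitors, went from 100.1, 132 and 113 CPM at day 2 to 179.7, 227 and 193 CPM at day 22 (log2 fold change 0.80, standard error 0.22, edgeR adjusted p = 0.00474). Without replicate 1 or 2 of day 2 or replicate 1 of day 22, 1 rose.

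The microRNA loci that stem cells are known for fell with these factors. The transcripts counted are precursors and hosts, since total RNA libraries do not measure the mature microRNA. The mature sequences are shown because 3 of the 4 loci encode the same seed, the stretch at bases 2 to 8 that selects targets. They are the RefSeq entries on GRCh38.p14, written 5′ to 3′ with the seed in capitals, and all 4 names matched.
hsa-miR-302a-3p: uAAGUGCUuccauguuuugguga
hsa-miR-302c-3p: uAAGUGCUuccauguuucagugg
hsa-miR-302d-3p: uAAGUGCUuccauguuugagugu
hsa-miR-367-3p: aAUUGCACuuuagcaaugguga
The 3 members of the miR-302 family share the seed AAGUGCU, and miR-367 has another, AUUGCAC. MIR302C was at 13.7, 15.2 and 9.11 CPM at day 2 and 0.0463, 0 and 0 CPM at day 22, 778-fold lower (95% counting interval 215 to 6432), with 2 counts left over the 3 libraries. MIR302A was at 6.85, 4.74 and 6.48 CPM at day 2 and had 1 count left at day 22, 727-fold lower (95% counting interval 129.9 to 28750). Counting intervals take each count as separate, so they are too narrow if the mates of a pair were counted separately. MIR302D went from 4.5, 4.1 and 3.28 CPM at day 2 to 0.0926, 0.0714 and 0 CPM at day 22 (log2 fold change -6.11, standard error 0.88, edgeR adjusted p = 1.91e-07, and -5.47 without replicate 3 of day 22), and MIR367 had 0 counts at day 22, at least 30.6-fold lower than its mean of 0.804 CPM. Exons of another gene on the same strand cover 100% of each of these 4 loci, so part of these counts may belong to the host transcript MIR302CHG, itself at 2.0, 1.45 and 2.55 CPM at day 2 and 0, 0.0476 and 0 CPM at day 22.

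Over the 17 precursor and host loci tested, 9 fell and 5 rose. The hosts of miR-124, a microRNA of neurons, went apart. MIR124-1HG went from 34.6, 43.8 and 39.7 CPM at day 2 to 0.278, 0.428 and 0 CPM at day 22 (log2 fold change -7.68, and -7.08 without replicate 3 of day 2 and -8.29 without replicate 2 of day 22). MIR124-2HG, elsewhere on the same chromosome, went from 0.443, 0.616 and 0.849 CPM at day 2 to 6.04, 3.92 and 5.23 CPM at day 22 (log2 fold change 3.03). TRPM3, host of miR-204, a microRNA of pigment epithelium, went from 21, 20.1 and 14.8 CPM at day 2 to 125, 139 and 103 CPM at day 22 (log2 fold change 2.72). The other rises were MIR99AHG, with 2 counts at day 2 and 3.73, 10.0 and 6.06 CPM at day 22, MIR100HG (log2 fold change 6.43, and 7.29 without replicate 3 of day 2) and MIR205HG (log2 fold change 3.52). MIR9-1HG (log2 fold change -4.63, and -3.84, -3.88 and -9.13 without replicates 1, 2 and 3 of day 22), MIRLET7BHG (log2 fold change -4.88, and -4.13 and -9.13 without replicates 1 and 2 of day 22) and MIR17HG (log2 fold change -1.36) fell.

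**Figure D2:**
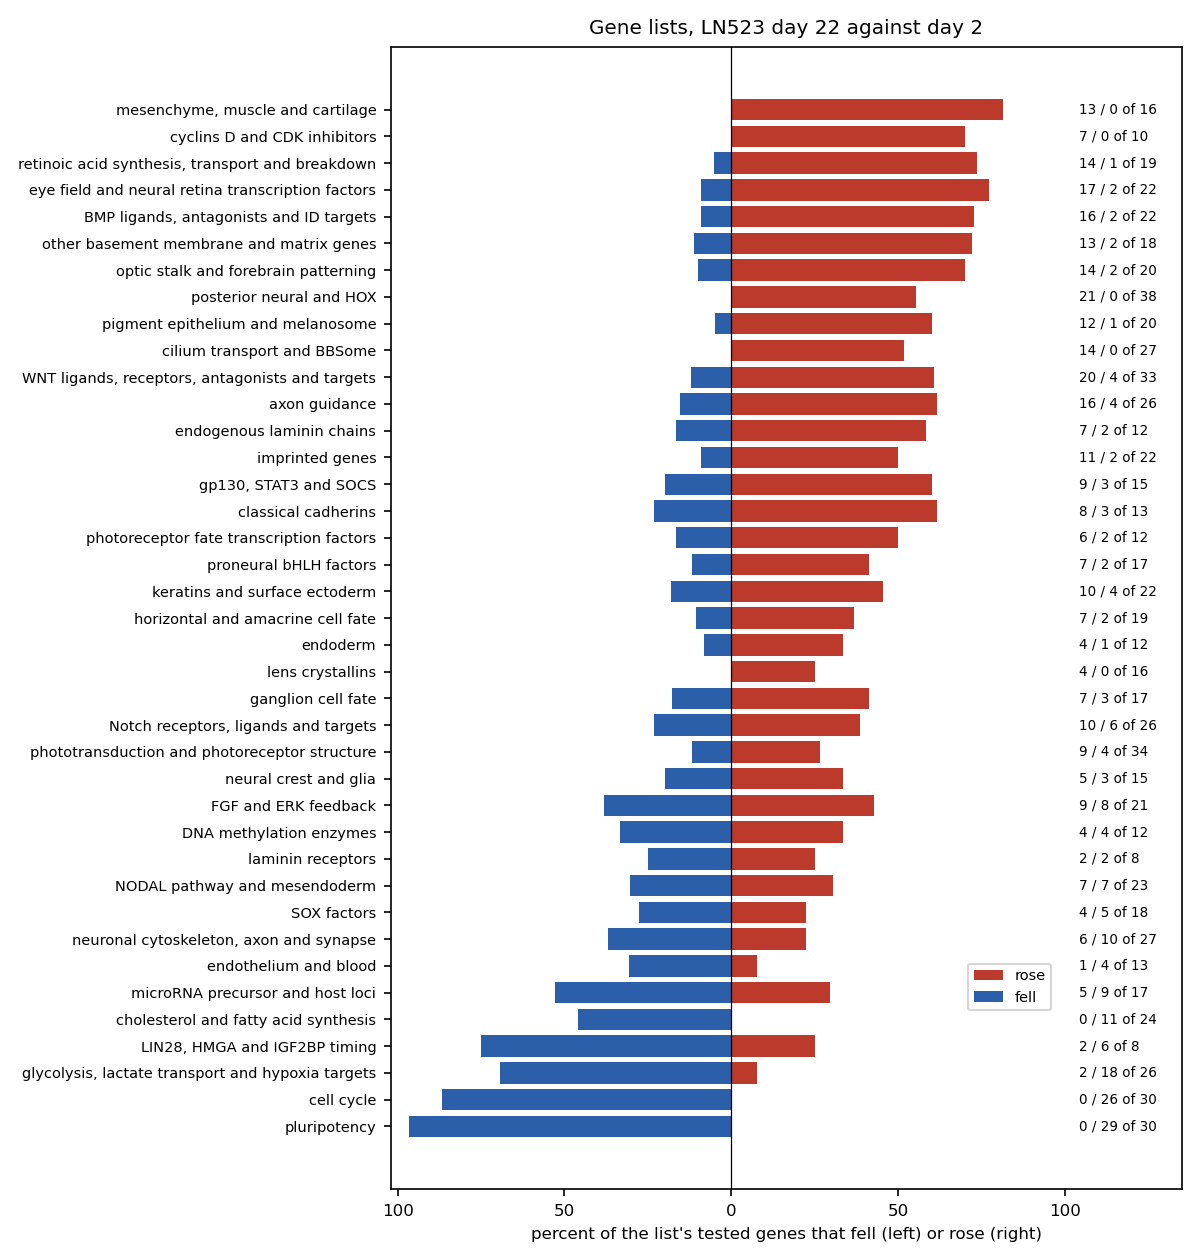
Bars give the percent of each list's tested genes that rose (red, right) or fell (blue, left) at an adjusted p under 0.05 on LN523, day 22 against day 2, with the counts rose / fell of tested at right. Pluripotency (0 / 29 of 30) and cell cycle genes (0 / 26 of 30) sit at the bottom and mesenchyme genes (13 / 0 of 16) and eye field genes (17 / 2 of 22) near the top.

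Metallothioneins, small proteins that bind zinc and copper, fell as a family. This family was picked after its values were seen, because MT1G and MT1H were among the 15 largest falls. Of 10 members tested, 9 fell and 0 rose, with a median log2 fold change of -5.52. MT1G went from 88.9, 78 and 65.4 CPM at day 2 to 0.0926, 0.0476 and 0.0572 CPM at day 22 (log2 fold change -10.21, standard error 0.67, edgeR adjusted p = 6.45e-18). MT1H went from 64.3, 58.5 and 39.2 CPM at day 2 to 0.0926, 0 and 0.114 CPM at day 22 (log2 fold change -9.65, and -9.00 without replicate 2 of day 22). MT2A, the most widely used member, went from 34.5, 37.8 and 33.1 CPM at day 2 to 2.04, 3.9 and 1.49 CPM at day 22 (log2 fold change -3.90). No day 22 library of these 3 genes came near a day 2 library, and the smaller fall of MT2A left it at the highest day 22 level of the 3. These genes are close copies of each other, so reads can be split between them. Their promoters are shown because the members moved together. The 250 bases before the start of MT1H (chr16:56669564-56669813, + strand) and of MT2A (chr16:56608334-56608583, + strand), from RefSeq on GRCh38.p14, hold in capitals every match to the core letters of the metal response element, TGCACNC or TGCGCNC, on either strand and with overlaps counted.
MT1H: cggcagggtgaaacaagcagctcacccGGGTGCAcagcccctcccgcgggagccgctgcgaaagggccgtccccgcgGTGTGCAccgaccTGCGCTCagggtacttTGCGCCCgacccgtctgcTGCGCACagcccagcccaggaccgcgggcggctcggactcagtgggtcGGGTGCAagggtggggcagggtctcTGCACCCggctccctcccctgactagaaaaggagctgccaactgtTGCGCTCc
MT2A: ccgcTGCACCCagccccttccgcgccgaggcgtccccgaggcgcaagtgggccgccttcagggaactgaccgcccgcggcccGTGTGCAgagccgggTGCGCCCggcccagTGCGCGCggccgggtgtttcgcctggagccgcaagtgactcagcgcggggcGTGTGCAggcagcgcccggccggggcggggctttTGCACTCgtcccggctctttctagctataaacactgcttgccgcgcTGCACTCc
There were 8 matches before MT1H, 7 before MT2A and 4 before MT1X, the 3 of these genes for which an entry matched. Of 35116 RefSeq promoter entries cut to the same length, 24.8% held at least 1 match, 0.37% held at least 4 and 0.0313% at least 7. Whether these matches had a part in the fall was not tested.

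Cell division genes fell. Of 30, 26 fell and 0 rose, with a median log2 fold change of -1.76, and the same counts were reached without replicate 2. CDC6, a licensing factor of replication, was at 204, 199 and 139.8 CPM at day 2 and 14, 59.9 and 12.2 CPM at day 22 (log2 fold change -2.84, standard error 0.50, edgeR adjusted p = 1.20e-05, and -3.59 without replicate 2 of day 22). MCM5, of the replicative helicase, went from 621, 713 and 423 CPM at day 2 to 66.7, 164 and 61.5 CPM at day 22 (log2 fold change -2.66). In both the groups did not overlap and replicate 2 kept the highest day 22 level, as it did in 17 of the 30 genes. The mitotic kinase BUB1 fell with a log2 fold change of -2.40. MKI67, the usual marker of cycling cells, was at 134, 132 and 144 CPM at day 2 and 54.7, 149 and 104 CPM at day 22 (log2 fold change -0.41, standard error 0.35, edgeR adjusted p = 0.532), so that replicate 2 overlapped the day 2 libraries. The other 3 that did not pass are also genes of replication and division. Among D cyclins and inhibitors of cyclin-dependent kinases, 7 of 10 rose and 0 fell (8 and 0 without replicate 2 of day 22). CDKN1A, which encodes p21, went from 15.8, 5.24 and 7.37 CPM at day 2 to 163, 54.3 and 125 CPM at day 22 (log2 fold change 3.62). CDKN2B (log2 fold change 6.73, and 7.73 without replicate 2 of day 2) and CCND1, a cyclin that retinal progenitors use (log2 fold change 1.44), rose as well.

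Of 26 genes of glycolysis and hypoxia, 18 fell and 2 rose, with a median log2 fold change of -1.17, and 13 fell without replicate 2 of day 22. Leaving out replicate 2 or 3 of day 2 gave 1 rise. PGAM1, a glycolytic mutase, went from 917, 622 and 905 CPM at day 2 to 122, 119.5 and 114 CPM at day 22 (log2 fold change -2.78). The lactate transporter SLC16A1 (log2 fold change -2.23) and the last enzyme of glycolysis, PKM (log2 fold change -1.56), fell too. Of the 2 rises, VEGFA, a growth factor of vessels, went from 37.4, 42.2 and 38.2 CPM at day 2 to 127, 46.7 and 112 CPM at day 22 (log2 fold change 1.24), with replicate 2 close to day 2. Of 24 genes of cholesterol and fatty acid synthesis, 0 rose and 11 fell (1 and 12 without replicate 2 of day 22), with FASN the largest fall (log2 fold change -1.51). The count of falls was 5 without replicate 1 or 3 of day 22. Replicate 2 held the highest day 22 level in 18 of the 24.

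Enzymes of DNA methylation and demethylation split, 4 of 12 up and 4 down (3 and 5 without replicate 2 of day 22). DNMT3B, the de novo methyltransferase of early embryo cells, went from 5384, 4264 and 4364 CPM at day 2 to 61.1, 56.6 and 58.8 CPM at day 22 (log2 fold change -6.31, standard error 0.34, edgeR adjusted p = 3.12e-21). TET2, which oxidises methylated cytosine, went from 7.01, 7.76 and 9.34 CPM at day 2 to 85, 97.2 and 86.9 CPM at day 22 (log2 fold change 3.47, standard error 0.24, edgeR adjusted p = 3.83e-17). The libraries of each day lay close together in both genes. DNMT1, which copies methylation at replication, fell (log2 fold change -1.35), and TET1 did not pass (log2 fold change -0.21, standard error 0.20, edgeR adjusted p = 0.601). Receptors of vessel growth that were present at day 2 fell. FLT1 was at 209, 179 and 306 CPM at day 2 and 1.5, 2.0 and 3.32 CPM at day 22 (log2 fold change -6.69). KDR was at 137, 178 and 192 CPM at day 2 and 6.53, 5.71 and 5.66 CPM at day 22 (log2 fold change -4.88). With TEK (log2 fold change -3.07) and TIE1 (log2 fold change -3.94) these were the 4 falls among 13 genes of endothelium and blood, of which 5 fell without replicate 2 of day 22. The defining members PECAM1, at 0.602, 0.285 and 0.0572 CPM, and PTPRC, at 0, 0 and 0.801 CPM, were near 0 at day 22.

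The eye field list had the highest median log2 fold change of the 39 lists. Of 22 transcription factors of the eye field and neural retina, 17 rose, all of them past the 2-fold test, 2 fell and 3 did not pass, with a median log2 fold change of 8.09. PAX6 (chromosome 11, 31784779 to 31817961), at the head of eye development, was at 1.61, 1.35 and 2.24 CPM at day 2 and 746, 481 and 616 CPM at day 22 (log2 fold change 8.48, standard error 0.33, edgeR adjusted p = 1.94e-26). RAX, needed for the optic vesicle to form, went from 0.625, 0.801 and 2.24 CPM at day 2 to 269.9, 118 and 219 CPM at day 22 (log2 fold change 7.46). LHX2, of the early optic vesicle, went from 0.26, 0.554 and 0.81 CPM at day 2 to 259, 87.9 and 251 CPM at day 22 (log2 fold change 8.46). In these 3 genes, as in SIX6, every day 22 library was above every day 2 library. SIX6 (chromosome 14, 60509146 to 60512850), a retinal progenitor factor and the largest rise of the list, went from 0.469, 0.185 and 0.309 CPM at day 2 to 260.3, 92.6 and 332 CPM at day 22 (log2 fold change 9.34, standard error 0.42, edgeR adjusted p = 1.10e-23). Replicate 2 was the lowest of day 22 in all 4, as it was in 15 of the 22 genes, and 17 rises and 2 falls were also counted without it.

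Dorsal genes of the retina were counted at higher levels than the ventral gene on the list. TBX2, TBX3 and TBX5 are T-box factors of the dorsal retina. TBX2 was at 0.573, 0.554 and 2.01 CPM at day 2 and 612, 327 and 828 CPM at day 22 (log2 fold change 9.24, standard error 0.46, edgeR adjusted p = 3.05e-22). TBX5 went from 0.0521, 0.0616 and 0.232 CPM at day 2 to 53.6, 51.1 and 65.5 CPM at day 22 (log2 fold change 9.18), and TBX3 rose with a log2 fold change of 8.47. VAX2, of the ventral retina, went from 0.0521, 0 and 0.0772 CPM at day 2 to 3.75, 0.357 and 1.74 CPM at day 22 (log2 fold change 5.30, and 6.11 without replicate 3 of day 2), lowest in replicate 2. By TPM, a level adjusted for transcript length, day 22 means were 403 ± 160.3 for TBX2, 53.9 ± 5.36 for TBX5 and 7.06 ± 6.27 for VAX2 (SD, n = 3). Exons of another gene on the same strand cover 56.3% of VAX2 and 0% of TBX2, TBX3 and TBX5. Reads of VAX2 may therefore be lost or shared, and its level is uncertain. MAB21L1 reached 480.3, 252 and 865 CPM (log2 fold change 8.73) and HMX1 164, 131 and 335 CPM (log2 fold change 8.08), both lowest in replicate 2, and MEIS1 238, 325 and 331 CPM (log2 fold change 8.48). The orphan nuclear receptors NR2F1 (log2 fold change 9.33) and NR2F2 (log2 fold change 9.47, and 10.38 without replicate 2 of day 2), which are in no list, were among the 15 largest rises and were highest in replicate 2. OTX2 went the other way. This homeobox factor, which serves stem cells, forebrain, pigment epithelium and photoreceptor precursors, went from 145, 84.8 and 141 CPM at day 2 to 42.6, 6.35 and 16.6 CPM at day 22 (log2 fold change -2.67, standard error 0.40, edgeR adjusted p = 3.34e-07), lowest in replicate 2. ZIC2 (log2 fold change -0.05, standard error 0.29, edgeR adjusted p = 1) and 2 others did not pass.

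Forebrain and optic stalk genes rose in 14 of 20 and fell in 2, with a median log2 fold change of 4.18, or 4.33 with the 5 genes that had 0 counts at a day held at their bound. PAX2, of the optic stalk, went from 0, 0.0616 and 0.0772 CPM at day 2 to 6.16, 2.0 and 6.78 CPM at day 22 (log2 fold change 6.62, and 5.78 and 7.30 without replicates 1 and 2 of day 2), and FEZF2 rose with a log2 fold change of 5.97 (7.79 and 5.33 without replicates 1 and 3 of day 2). VAX1, of the ventral stalk, had 0 counts at day 2 and 3.22, 0 and 0.0572 CPM at day 22, almost all in replicate 1, and without replicate 1 of day 2 or replicate 1 of day 22 it was not called. LHX5 was among the falls (log2 fold change -3.87, and -3.13 without replicate 3 of day 2). NKX2-1, of the ventral forebrain, was at 0, 0.0951 and 0 CPM at day 22.

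**Figure D3:**
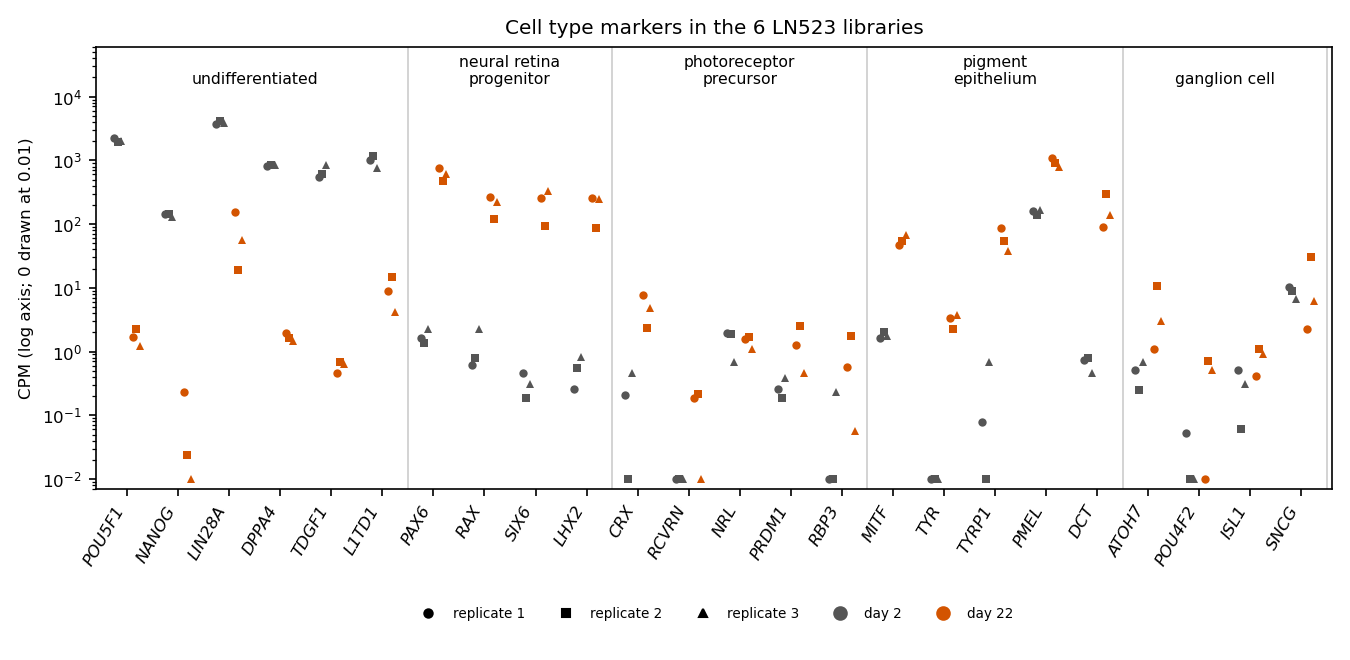
CPM after TMM normalization (log axis, 0 drawn at 0.01) of cell type markers in the 3 day 2 libraries (grey) and the 3 day 22 libraries (orange) on LN523, with a symbol for each replicate. The undifferentiated markers drop, the neural retina progenitor markers and the pigment epithelium markers rise without overlap, and RCVRN, NRL and RBP3 stay under 2 CPM at both days.

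Genes of the list of pigment epithelium and melanosome were another gain, and which cells held them was not tested. Of 20, 12 rose and 1 fell (10 and 1 without replicate 2 of day 22), with a median log2 fold change of 2.67, or 2.60 with the 2 genes that had 0 counts at a day held at their bound. MITF, the factor that sets pigment cell fate, went from 1.61, 2.03 and 1.77 CPM at day 2 to 47.6, 54.5 and 67.6 CPM at day 22 (log2 fold change 4.96, standard error 0.38, edgeR adjusted p = 1.72e-15). The melanin enzymes rose with it, and their day 22 libraries lay above all day 2 libraries. TYR had 0 counts at day 2 and was at 3.33, 2.24 and 3.72 CPM at day 22, at least 98.8-fold higher. TYRP1 went from 0.0781, 0 and 0.695 CPM at day 2 to 88.3, 53.7 and 38.3 CPM at day 22 (log2 fold change 8.08, and 10.36 without replicate 3 of day 2). DCT went from 0.729, 0.801 and 0.463 CPM at day 2 to 91, 291 and 139.9 CPM at day 22 (log2 fold change 7.96, standard error 0.40, edgeR adjusted p = 4.27e-22), highest in replicate 2. PMEL, of the melanosome matrix, differed in that day 2 libraries already held 158, 139.6 and 163 CPM, against 1086, 905 and 798 CPM at day 22 (log2 fold change 2.60). TFEC, an MITF relative, was among the 15 largest rises, with 17.3, 28.4 and 30.1 CPM at day 22. Genes of the mature visual cycle stayed near 0 or fell. RPE65, the isomerase of that cycle, was at 0, 0.428 and 0 CPM at day 22 and did not pass, though it was called without replicate 1 or 3 of day 22. RLBP1 was at 0.463, 0.143 and 0.458 CPM. LRAT, which makes retinyl esters, went from 39.8, 45.4 and 9.11 CPM at day 2 to 0.0463, 11.5 and 0.229 CPM at day 22 (log2 fold change -3.80, standard error 0.88, edgeR adjusted p = 6.45e-04, and -3.05 without replicate 1 of day 2 and -2.88, -7.40 and -3.04 without replicates 1, 2 and 3 of day 22), with most of what was left in replicate 2.

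Photoreceptor genes rose in part and at low levels. Of 12 photoreceptor fate factors, 6 rose, 2 fell (5 and 2 without replicate 2 of day 22) and 4 did not pass. There was 1 fall without replicate 1 or 3 of day 22. CRX (chromosome 19, 47819779 to 47843330), the first photoreceptor factor, was at 0.208, 0 and 0.463 CPM at day 2 and 7.82, 2.33 and 4.8 CPM at day 22 (log2 fold change 4.44, standard error 0.69, edgeR adjusted p = 1.02e-06, and 3.81 and 5.82 without replicates 2 and 3 of day 2), without overlap. RXRG, a nuclear receptor of cone precursors, had 0 counts at day 2 and was at 5.46, 7.56 and 40.4 CPM at day 22, highest in replicate 3 and at least 528-fold higher. NEUROD1, a factor of photoreceptor and amacrine precursors, had 2 counts at day 2 and was at 0.0463, 2.76 and 0.572 CPM at day 22, almost all in replicate 2. These factors were thus carried by different libraries. PRDM1, which steers precursors away from bipolar fate, rose with a log2 fold change of 1.95 (2.94 without replicate 3 of day 2) and was not called without replicate 1 or 2 of day 2 or replicate 2 of day 22 (log2 fold change 1.27 to 1.92, edgeR adjusted p = 0.0553 to 0.372). NRL, the rod factor, was at 1.95, 1.91 and 0.695 CPM at day 2 and 1.57, 1.67 and 1.09 CPM at day 22 (log2 fold change -0.03, standard error 0.53, edgeR adjusted p = 1). NR2E3, which acts after NRL, fell to 0, 0.0951 and 0 CPM (log2 fold change -4.40, and -7.70 without replicate 2 of day 22) and was not called without replicate 1 or 3 of day 22 (log2 fold change -3.69 to -3.79, edgeR adjusted p = 0.0754 to 0.0783). OTX2 was the other fall.

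Of 34 genes of phototransduction and photoreceptor structure, 9 rose, 4 fell (7 and 4 without replicate 2 of day 22) and 21 did not pass. Only 15 of the 34 reached a mean of 1 CPM, so the 25.9% and 24.3% of genes at that level are not a like share. Over all genes tested 11.5% rose and 10.2% fell. Without replicate 2 of day 2 or replicate 1 of day 22, 5 rose. RCVRN, recoverin, had 0 counts at day 2 and was at 0.185, 0.214 and 0 CPM at day 22, and RBP3, of the matrix between photoreceptors, reached 0.579, 1.76 and 0.0572 CPM (log2 fold change 3.15, and 8.07 without replicate 3 of day 2 and 3.79 without replicate 3 of day 22). The call of RCVRN was lost without any 1 of replicates 1 and 2 of either day, and RBP3 was not called without replicate 1 or 2 of day 2 or replicate 2 of day 22 (log2 fold change 2.13 to 2.31, edgeR adjusted p = 0.125 to 0.247). Of the members that rose, PDE6B and ABCA4 had the most reads. PDE6B, a subunit of the rod phosphodiesterase, went from 9.4, 9.79 and 12 CPM at day 2 to 49.5, 24.9 and 65.5 CPM at day 22 (log2 fold change 2.10, standard error 0.33, edgeR adjusted p = 1.54e-06). ABCA4, a retinoid transporter of outer segments that pigment epithelium also makes, went from 0, 0.554 and 0.154 CPM at day 2 to 8.59, 13.4 and 6.78 CPM at day 22 (log2 fold change 5.38, standard error 0.65, edgeR adjusted p = 2.32e-09, and 4.70 and 7.04 without replicates 1 and 2 of day 2). UNC119, a trafficking protein that other tissues also use, was at 64.8, 68 and 65.9 CPM at day 2 and 83.5, 76.9 and 77.6 CPM at day 22 and did not pass (log2 fold change 0.26, standard error 0.19, edgeR adjusted p = 0.434), though limma on TPM called it (log2 fold change 0.57 and 0.58). PRPH2 (log2 fold change -6.26, and -5.55 and -9.16 without replicates 1 and 2 of day 22), AIPL1 (log2 fold change -4.60, and -3.56 without replicate 3 of day 2) and PDE6G (log2 fold change -4.44) were among the falls, from day 2 means of 2.15, 2.38 and 3.79 CPM. Cilium genes, which build the outer segment as well as other cilia, rose in 14 of 27 and fell in 0, with a median log2 fold change of 0.75, and 18 rose without replicate 2. BBS5, of the BBSome coat, went from 0.339, 0.40 and 0.386 CPM at day 2 to 13.2, 11.9 and 15.3 CPM at day 22 (log2 fold change 5.15). CEP290 (log2 fold change 1.69) and IFT140 (log2 fold change 1.66), both linked to retinal degeneration when mutated, rose as well.

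Factors of the other retinal neurons appeared unevenly. Of 17 ganglion cell genes, 7 rose and 3 fell (7 and 4 without replicate 2 of day 22). ATOH7, which starts ganglion cell fate, went from 0.521, 0.246 and 0.695 CPM at day 2 to 1.11, 10.7 and 3.03 CPM at day 22 (log2 fold change 3.27, standard error 0.68, edgeR adjusted p = 1.68e-04, and 4.01 and 2.13 without replicates 1 and 2 of day 22), highest in replicate 2. POU4F2, which follows it, was at 0, 0.714 and 0.515 CPM at day 22 after 2 counts at day 2, and was not called without replicate 2 of day 2 (log2 fold change 3.60, edgeR adjusted p = 0.0675). ISL1 (log2 fold change 1.28, standard error 0.85, edgeR adjusted p = 0.366) and SNCG (log2 fold change 0.32, standard error 0.54, edgeR adjusted p = 0.815) did not pass. Among 19 horizontal and amacrine cell genes, 7 rose and 2 fell (8 and 3 without replicate 2 of day 22). FOXN4, which starts both fates, went from 0.573, 0.585 and 1.08 CPM at day 2 to 10.9, 4.5 and 19 CPM at day 22 (log2 fold change 3.86), lowest in replicate 2. LHX9, of amacrine cells, had 0 counts at day 2 and 10.7, 8.28 and 16.5 CPM at day 22, at least 372-fold higher. PROX1 (log2 fold change 4.20) and GAD1, which makes GABA (log2 fold change 4.36, and 5.00 without replicate 2 of day 2 and 5.05 without replicate 2 of day 22), rose, and the calcium-binding proteins CALB1 (log2 fold change -4.34, and -3.69, -6.08 and -3.72 without replicates 1, 2 and 3 of day 22) and CALB2 (log2 fold change -5.61, and -6.49 without replicate 2 of day 22) fell.

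Proneural factors rose in 7 of 17 and fell in 2. ATOH8 (log2 fold change 5.75) and INSM1 (log2 fold change 3.14) rose, as did BHLHE22, which had 2 counts at day 2 and was at 3.19, 3.35 and 3.57 CPM at day 22. Of 27 neuronal cytoskeleton and synapse genes, 6 rose and 10 fell (5 and 11 without replicate 2 of day 22). MAP2, of dendrites, went from 19.9, 10.8 and 23.3 CPM at day 2 to 163, 79.3 and 212 CPM at day 22 (log2 fold change 3.06), and the adhesion molecule NCAM1 rose with a log2 fold change of 3.77. The neurofilament NEFL went from 47.8, 23.7 and 48.5 CPM at day 2 to 2.29, 9.04 and 1.34 CPM at day 22 (log2 fold change -3.51, and -2.84 without replicate 3 of day 2 and -4.42 without replicate 2 of day 22). The vesicle protein SYP went from 22.7, 37.3 and 15 CPM at day 2 to 0.741, 2.95 and 0.743 CPM at day 22 (log2 fold change -4.10, and -4.81 without replicate 2 of day 22), and GAP43, of growth cones, fell with a log2 fold change of -2.06. In NEFL and SYP replicate 2 was the highest of day 22, and no day 22 library reached a day 2 library. DCX, a marker of young neurons, did not pass (log2 fold change 0.64, standard error 0.53, edgeR adjusted p = 0.525) but was called without replicate 1 of day 22 (log2 fold change 1.35, edgeR adjusted p = 0.0455).

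Notch genes were measured in cells fed with DAPT. Of 26, 10 rose and 6 fell (11 and 5 without replicate 2 of day 22). Leaving out replicate 3 of day 22 gave 3 falls. HES1, a target of the pathway and a brake on neurogenesis, went from 13.7, 11.6 and 17.8 CPM at day 2 to 89, 63.1 and 77.4 CPM at day 22 (log2 fold change 2.42, standard error 0.25, edgeR adjusted p = 3.97e-11), without overlap. The targets HEY1 (log2 fold change 4.29) and HES4 (log2 fold change 2.88) rose, and HEY2 fell (log2 fold change -2.88, and -3.60 without replicate 2 of day 22), so the targets moved both ways. DLL1, a ligand, went from 5.18, 4.71 and 6.83 CPM at day 2 to 55.2, 18.8 and 47.5 CPM at day 22 (log2 fold change 2.83), and DLL4 rose (log2 fold change 3.12, and 3.86 without replicate 1 of day 2 and 3.84 without replicate 1 of day 22). The receptor NOTCH1 did not pass (log2 fold change -0.24, standard error 0.23, edgeR adjusted p = 0.595).

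Retinoic acid, which was in the medium, acts through nuclear receptors, is made by ALDH1A enzymes and is broken down by CYP26 enzymes. Of 19 genes of this system, 14 rose and 1 fell, with a median log2 fold change of 2.38. ALDH1A1, the enzyme of the dorsal retina, was at 6.04, 6.71 and 15.9 CPM at day 2 and 1706, 2859 and 3659 CPM at day 22 (log2 fold change 8.29, standard error 0.56, edgeR adjusted p = 1.53e-17). Its mean rose from 11.3 ± 6.92 to 3981 ± 1335 TPM (SD, n = 3), among the 10 highest protein-coding genes of day 22. RARB, a receptor that is itself a target, went from 0.938, 0.616 and 0.463 CPM at day 2 to 20.0, 134 and 21.2 CPM at day 22 (log2 fold change 6.09, standard error 0.48, edgeR adjusted p = 5.00e-15, and 5.30 without replicate 2 of day 22), highest in replicate 2. The binding protein CRABP1 (log2 fold change 2.62) rose. CYP26B1 was at 0.312, 0.431 and 1.12 CPM at day 2 and 8.26, 409 and 13.9 CPM at day 22 (log2 fold change 6.86, standard error 1.06, edgeR adjusted p = 8.16e-07, and 6.00 and 7.88 without replicates 2 and 3 of day 2 and 7.74 and 7.71 without replicates 1 and 3 of day 22). Nearly all of its day 22 RNA was in replicate 2, and without that library the log2 fold change was 4.61. CYP26A1 rose more evenly, from 24, 4.07 and 20.9 CPM at day 2 to 51.5, 34.4 and 43.1 CPM at day 22 (log2 fold change 1.44), and was not called without replicate 2 of day 2 (log2 fold change 0.95, edgeR adjusted p = 0.229). DHRS3, which turns retinal back to retinol, was at 60.4, 53.4 and 47.9 CPM at day 2 and 23.8, 489.9 and 44.4 CPM at day 22 and did not pass (log2 fold change 1.35, standard error 0.52, edgeR adjusted p = 0.0584). Replicate 2 lay above and the other two day 22 libraries under the day 2 libraries. DHRS3 was called without replicate 1 or 3 of day 22 (log2 fold change 2.00 to 2.14, edgeR adjusted p = 5.88e-04 to 0.00606), and without replicate 2 of day 22 its log2 fold change was -0.41. The count of falls was 0 without replicate 1 or 3 of day 22.

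WNT genes rose in 20 of 33 and fell in 4 (19 and 4 without replicate 2 of day 22), with a median log2 fold change of 1.73. The secreted antagonist SFRP2, of the optic vesicle, went from 90.0, 289.7 and 87.9 CPM at day 2 to 2748, 1235 and 3008 CPM at day 22 (log2 fold change 3.69, standard error 0.47, edgeR adjusted p = 1.06e-08, and 4.87 without replicate 2 of day 2). At a mean of 4736 ± 1858 TPM (SD, n = 3) it was, like ALDH1A1, among the 10 highest protein-coding genes of day 22. The antagonist DKK1 went from 0.365, 0.493 and 1.77 CPM at day 2 to 212, 22 and 374 CPM at day 22 (log2 fold change 7.59, standard error 0.73, edgeR adjusted p = 3.01e-12, and 8.18 without replicate 2 of day 22), much lower in replicate 2 than in the other day 22 libraries. The ligands WNT6, with 28, 196 and 44.8 CPM at day 22 (log2 fold change 9.04), and WNT10A, with 20.6, 126 and 31.6 CPM (log2 fold change 8.76, and 10.71 and 7.62 without replicates 1 and 2 of day 2), were among the 15 largest rises, and both were highest in replicate 2. WNT5B, of the non-canonical branch, rose more evenly, to 43.8, 30.6 and 35.5 CPM (log2 fold change 5.68). Of the transcriptional targets, LEF1 rose (log2 fold change 7.13, and 7.93 without replicate 3 of day 2) and AXIN2 fell, from 47.5, 50.4 and 48.6 CPM at day 2 to 10.4, 48.6 and 14.1 CPM at day 22 (log2 fold change -1.19, standard error 0.36, edgeR adjusted p = 0.00971). In AXIN2 replicate 2 was at the day 2 level, and the gene was not called without replicate 3 of day 2 or replicate 1 or 3 of day 22 (log2 fold change -0.69 to -1.06, edgeR adjusted p = 0.0517 to 0.251). SFRP1 (log2 fold change -1.32), SFRP5 (log2 fold change -6.11, and -5.26 and -7.44 without replicates 1 and 2 of day 22) and FZD7 (log2 fold change -1.75) were the other falls.

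BMP genes rose in 16 of 22 and fell in 2 (18 and 2 without replicate 2 of day 22), with a median log2 fold change of 3.00. BMP4, a signal of the dorsal eye, went from 4.74, 4.37 and 7.49 CPM at day 2 to 154, 49.4 and 77.8 CPM at day 22 (log2 fold change 4.11, standard error 0.33, edgeR adjusted p = 1.28e-14), without overlap. Its targets MSX2 (log2 fold change 6.96, and 7.67 without replicate 3 of day 2), ID3 (log2 fold change 2.47) and ID2 (log2 fold change 3.15) rose, while ID1 did not pass (log2 fold change 0.58, standard error 0.35, edgeR adjusted p = 0.302). ID1 was called without replicate 2 of day 22 (log2 fold change 1.04, edgeR adjusted p = 0.0165), and with the 6 LN523 libraries alone (log2 fold change 0.52, edgeR adjusted p = 0.0458). Antagonists of the pathway rose beside the ligand. CHRD, chordin, went from 1.61, 1.48 and 2.08 CPM at day 2 to 38.9, 12.7 and 55.7 CPM at day 22 (log2 fold change 4.29), and NOG, noggin, rose with a log2 fold change of 3.91. FST, follistatin (log2 fold change -1.71), and BMP2 (log2 fold change -1.27) were the falls.

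FGF genes were divided, 9 up and 8 down of 21 (9 and 7 without replicate 2 of day 22). FGF2, the growth factor that sustains stem cells, went from 179.8, 175 and 191 CPM at day 2 to 43.2, 17.9 and 42.1 CPM at day 22 (log2 fold change -2.45). FGFR4 (log2 fold change -4.46) and ETV4, a target of ERK signalling (log2 fold change -3.88, and -2.94 without replicate 2 of day 2), fell with it. FGF9, a signal of the distal optic vesicle, went from 0.0521, 0.246 and 0.0772 CPM at day 2 to 20.6, 16 and 32.4 CPM at day 22 (log2 fold change 7.49, standard error 0.49, edgeR adjusted p = 4.68e-18, and 8.40 without replicate 2 of day 2), and FGF8 rose (log2 fold change 3.02, and 3.63 without replicate 1 of day 2). In a list of 23 genes of the NODAL pathway and of mesendoderm, the early tissue that NODAL induces, 7 rose and 7 fell (9 and 5 without replicate 2 of day 22). The falls described here are pathway genes, in cells fed with an inhibitor of NODAL receptors, and GATA4, a factor of mesendoderm, was among the rises. There were 4 rises without replicate 2 of day 2. Without replicate 1 or 3 of day 22, 4 fell. FOXH1, the DNA-binding partner of the pathway, went from 100.1, 97.1 and 85.7 CPM at day 2 to 0.671, 0.19 and 0.572 CPM at day 22 (log2 fold change -7.71). LEFTY1 fell (log2 fold change -3.51, and -2.45 and -4.19 without replicates 2 and 3 of day 2 and -2.87 and -4.46 without replicates 1 and 3 of day 22). NODAL fell too (log2 fold change -2.15), but was not called without replicate 2 of day 2 or replicate 1, 2 or 3 of day 22 (log2 fold change -1.32 to -2.24, edgeR adjusted p = 0.0612 to 0.312). In contrast, LEFTY2 was at 12.6, 5.02 and 4.55 CPM at day 2 and 12.9, 9.87 and 75.6 CPM at day 22 (log2 fold change 1.70, standard error 0.59, edgeR adjusted p = 0.0304, and 2.42 without replicate 1 of day 2) and was not called without replicate 2 or 3 of day 2 or replicate 3 of day 22 (log2 fold change 0.92 to 1.62, edgeR adjusted p = 0.108 to 0.384).

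Genes of the receptors for the added growth factors changed. CNTFR, the receptor subunit that binds CNTF, went from 1.9, 0.924 and 1.7 CPM at day 2 to 80.4, 32.6 and 85.9 CPM at day 22 (log2 fold change 5.44). IL6ST, which encodes the shared subunit gp130 (log2 fold change 3.73), and SOCS3, a feedback inhibitor (log2 fold change 1.58), rose. LIFR, the third subunit, fell (log2 fold change -1.05). In all, 9 of 15 genes of gp130 signalling rose and 3 fell (9 and 2 without replicate 2 of day 22). Leaving out replicate 3 of day 22 gave 1 fall. NTRK2, the receptor for BDNF, went from 0.26, 0.0616 and 0.0772 CPM at day 2 to 11, 66.7 and 13 CPM at day 22 (log2 fold change 7.66, standard error 0.66, edgeR adjusted p = 1.12e-13, and 8.59 without replicate 1 of day 2 and 8.34 and 6.54 without replicates 1 and 2 of day 22), highest in replicate 2.

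The cells' own laminin genes changed on this laminin. Of 12 chains, 7 rose and 2 fell (8 and 2 without replicate 2 of day 22). The count of rises was 4 without replicate 2 of day 2. There was 1 fall without replicate 3 of day 2. LAMC3, which encodes the γ3 chain of LN523, went from 34.1, 38.1 and 33.5 CPM at day 2 to 3.98, 2.76 and 7.95 CPM at day 22 (log2 fold change -2.86, standard error 0.36, edgeR adjusted p = 7.73e-09). LAMB2, its β2 chain, went from 201, 160.1 and 204 CPM at day 2 to 470.4, 455 and 578 CPM at day 22 (log2 fold change 1.41, standard error 0.20, edgeR adjusted p = 1.80e-07). LAMA5, its α5 chain, went from 191, 155 and 203 CPM at day 2 to 264, 291 and 246 CPM at day 22 (log2 fold change 0.53, standard error 0.20, edgeR adjusted p = 0.0498), and was not called without replicate 1 or 2 of day 2 (log2 fold change 0.38 to 0.50, edgeR adjusted p = 0.157 to 0.319). LAMA5 also lost its call without the replicate block and with RLE scaling (edgeR adjusted p = 0.0584 and 0.0641), and with DESeq2 (DESeq2 adjusted p = 0.0549). LAMB1 (log2 fold change 2.26), of the common laminins, rose. Of 8 laminin receptor genes, 2 rose and 2 fell (3 and 1 without replicate 2 of day 22), and the count of rises was between 1 and 4 when a library was left out. ITGB4, an epithelial integrin chain, rose (log2 fold change 2.62). ITGA6, whose integrin binds laminin on stem cells, went from 365, 341 and 408 CPM at day 2 to 83.6, 184 and 109.6 CPM at day 22 (log2 fold change -1.66, standard error 0.23, edgeR adjusted p = 5.82e-08). Of 18 other genes of basement membrane and matrix, 13 rose and 2 fell. Without replicate 1 or 3 of day 2 or replicate 1 or 3 of day 22, 1 fell. FN1, fibronectin, went from 292, 214 and 334 CPM at day 2 to 4490, 1592 and 4833 CPM at day 22 (log2 fold change 3.69, standard error 0.35, edgeR adjusted p = 1.50e-12). SPARC (log2 fold change 2.84), COL4A2 (log2 fold change 2.30) and RELN, reelin (log2 fold change 8.22), rose, and VCAN fell (log2 fold change -2.12).

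Cadherin genes were exchanged, with 8 of 13 up and 3 down (8 and 2 without replicate 2 of day 22). Leaving out replicate 3 of day 22 gave 1 fall. CDH1, the cadherin of stem cell colonies, went from 538, 386 and 597 CPM at day 2 to 111, 434 and 131 CPM at day 22 (log2 fold change -1.52, standard error 0.42, edgeR adjusted p = 0.00501), and replicate 2 overlapped the day 2 libraries. CDH1 was not called without replicate 1 of day 2 or replicate 1 or 3 of day 22 (log2 fold change -1.20 to -1.25, edgeR adjusted p = 0.0534 to 0.0896). CDH2, of neural epithelium, went from 81.1, 62.6 and 97.8 CPM at day 2 to 487, 336 and 586 CPM at day 22 (log2 fold change 2.54). CDH6 (log2 fold change 5.11, and 5.98 without replicate 1 of day 2) and CDH11 (log2 fold change 4.45) rose as well. Axon guidance genes rose in 16 of 26 and fell in 4 (16 and 3 without replicate 2 of day 22). EFNB2, an ephrin of the dorsal retina, went from 31.4, 27 and 34.3 CPM at day 2 to 126, 489.8 and 413 CPM at day 22 (log2 fold change 3.44), and EFNB1 (log2 fold change 3.32) and the chemokine receptor CXCR4 (log2 fold change 4.25) also rose.

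Genes from outside the retina rose too, and in these the day 22 libraries were far from alike. In bulk RNA, fewer cells of a type and less RNA per cell cannot be told apart. Of 38 HOX genes, which pattern hindbrain, spinal cord and limb, 21 rose and 0 fell, with a median log2 fold change of 5.70, or 5.19 with the 20 genes that had 0 counts at a day held at their bound. Without replicate 2 of day 22, 15 rose and the median was 2.78. Their summed level was 0.116 to 0.893 CPM at day 2 and 16.9, 409 and 29.1 CPM in replicates 1, 2 and 3 of day 22. HOXA5 was at 0.995, 121 and 2.23 CPM at day 22 (log2 fold change 8.96, edgeR adjusted p = 4.20e-06, and 11.27 without replicate 2 of day 2 and 9.79 and 9.56 without replicates 1 and 3 of day 22), and without replicate 2 of day 22 its log2 fold change was 6.28 (edgeR adjusted p = 5.55e-05). HOXB13, normally of the tail end of the body, had 0 counts at day 2 and was at 0.0926, 18.7 and 0.801 CPM at day 22. Replicate 2 was the highest for both. The same lane held the most HOX RNA in other groups. At day 32 on LN523 the summed HOX level was 7.81, 263 and 52.8 CPM in replicates 1, 2 and 3, and at day 22 on LN323 it was 32.3, 392 and 67.1 CPM. On LN521 at day 22 replicate 1 was the highest, at 353, 118 and 25.3 CPM. The cause of these differences between libraries was not tested.

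**Figure D4:**
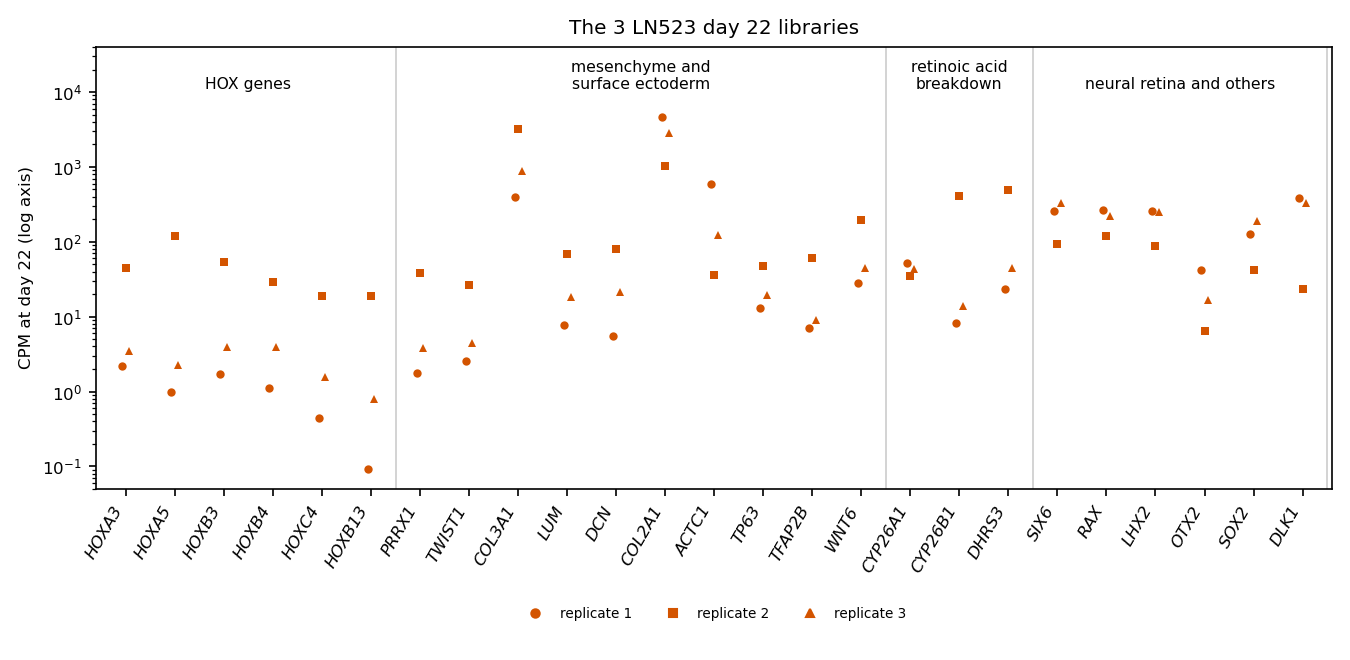
CPM (log axis) of genes in the 3 day 22 libraries on LN523, with a symbol for each replicate. Replicate 2 (squares) is the highest for every HOX gene drawn, for CYP26B1 and for DHRS3. It is also the highest for the mesenchyme and surface ectoderm genes other than COL2A1 and ACTC1. It is the lowest for COL2A1, ACTC1, CYP26A1, SIX6, RAX, LHX2, OTX2, SOX2 and DLK1.

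Of 16 genes of mesenchyme, muscle and cartilage, 13 rose and 0 fell, with a median log2 fold change of 4.95, or 3.51 with the 3 genes that had 0 counts at a day held at their bound, and 14 rose without replicate 2. Their summed level was 368 to 614 CPM at day 2 and 7450, 6900 and 5900 CPM in replicates 1, 2 and 3 of day 22, and 9 of the 16 were highest and 5 lowest in replicate 2. COL2A1, the collagen of cartilage and of the vitreous, went from 16.8, 39.5 and 29.7 CPM at day 2 to 4643, 1036 and 2875 CPM at day 22 (log2 fold change 6.49, standard error 0.37, edgeR adjusted p = 4.66e-20), lowest in replicate 2. COL3A1, of connective tissue, went from 1.15, 6.5 and 2.93 CPM at day 2 to 399.8, 3238 and 878 CPM at day 22 (log2 fold change 8.58), highest in replicate 2. DCN (log2 fold change 7.08) and LUM (log2 fold change 8.14, and 7.04 and 9.90 without replicates 2 and 3 of day 2), proteoglycans of connective tissue and cornea, and PRRX1, at 1.78, 37.8 and 3.83 CPM after 0 counts at day 2, were highest in replicate 2 as well. ACTC1, the heart actin, was at 588, 36 and 122 CPM at day 22 (log2 fold change 3.25, and 1.87 and 3.96 without replicates 1 and 2 of day 22), highest in replicate 1. MYOD1, of skeletal muscle, had 0 counts at day 22. Mesenchymal RNA thus rose in the same libraries as the retinal genes, but its members did not all follow them across replicates. COL2A1 alone held 4643, 1036 and 2875 CPM of the summed level. COL3A1, DCN, LUM and PRRX1 were highest in replicate 2, where SIX6, RAX and LHX2 were lowest. COL2A1 and ACTC1 were lowest there too. The part of mesenchymal RNA in the levels of the retinal genes was not tested.

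Surface ectoderm genes were mixed, 10 of 22 up and 4 down (11 and 6 without replicate 2 of day 22), and replicate 2 was the highest day 22 library in 20 of the 22. TP63, of epidermis, went from 0.0521, 0.185 and 0.0772 CPM at day 2 to 13.2, 47.4 and 19.3 CPM at day 22 (log2 fold change 7.95, standard error 0.63, edgeR adjusted p = 7.45e-15). KRT17 (log2 fold change 4.98) and TFAP2A (log2 fold change 4.54, and 5.56 and 3.88 without replicates 1 and 2 of day 2) rose, while KRT14, of mature epidermis, was at 0.0463, 0.0951 and 0.0572 CPM at day 22. EPCAM, an adhesion molecule of stem cells, went from 194, 246 and 208 CPM at day 2 to 32.1, 108 and 40.7 CPM at day 22 (log2 fold change -2.04), and ESRP1 (log2 fold change -3.26) and CLDN6 (log2 fold change -2.32) fell with it. In neural crest and glia, 5 of 15 rose and 3 fell (7 and 3 without replicate 2 of day 22). TWIST1 (log2 fold change 6.26, and 7.21 and 5.35 without replicates 1 and 2 of day 2 and 6.87 without replicate 1 of day 22) and SNAI2 (log2 fold change 4.80) rose, both highest in replicate 2. FOXD3, shared by stem cells and crest, went from 34.4, 38.8 and 19.9 CPM at day 2 to 0.0463, 0.0476 and 0.20 CPM at day 22 (log2 fold change -8.47, and -7.67 without replicate 2 of day 2 and -7.57 and -9.56 without replicates 1 and 3 of day 22), and ERBB3 (log2 fold change -1.90) fell too. TFAP2B, of crest and of amacrine cells, was among the 15 largest rises, with 0 counts at day 2 and 7.04, 60.0 and 8.98 CPM at day 22, at least 843-fold higher. Lens genes rose in 4 of 16 and fell in 0 (5 and 1 without replicate 2 of day 22), or rose in 7 without replicate 3 of day 22, with CRYAA, a crystallin, at 1.99, 4.28 and 4.46 CPM at day 22 (log2 fold change 5.88). Endoderm genes rose in 4 of 12 and fell in 1 (5 and 2 without replicate 2 of day 22). GATA4 was at 0.972, 8.09 and 1.2 CPM at day 22, and AFP went from 6.02, 7.14 and 3.4 CPM at day 2 to 0, 0.761 and 0 CPM at day 22 (log2 fold change -5.17, and -4.37, -10.23 and -4.57 without replicates 1, 2 and 3 of day 22).

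Imprinted genes, which are read from 1 parental copy, rose in 11 of 22 and fell in 2 (12 and 1 without replicate 2 of day 22). IGF2, a fetal growth factor, went from 1.25, 1.05 and 1.31 CPM at day 2 to 129.9, 564 and 162 CPM at day 22 (log2 fold change 7.58, standard error 0.40, edgeR adjusted p = 2.62e-21). Its neighbour H19, a non-coding RNA, went from 3.25, 4.34 and 4.28 CPM at day 2 to 191, 1190 and 244 CPM at day 22 (log2 fold change 6.72). Both were highest in replicate 2. DLK1, a Notch-like membrane protein, went from 4.3, 1.42 and 2.78 CPM at day 2 to 384, 23.4 and 332 CPM at day 22 (log2 fold change 6.27, standard error 0.54, edgeR adjusted p = 8.13e-14, and 6.97 without replicate 2 of day 22), with replicate 2 far below the others. The count of falls was 1 without replicate 1 or 3 of day 2 or replicate 1 or 3 of day 22. Of 18 SOX factors, 4 rose and 5 fell (5 and 5 without replicate 2 of day 22). SOX9, of retinal progenitors and cartilage, went from 9.06, 9.18 and 10.0 CPM at day 2 to 39, 38.4 and 63.1 CPM at day 22 (log2 fold change 2.29), and SOX5 (log2 fold change 2.95) and SOX6 (log2 fold change 4.80) rose. SOX21 went from 79.2, 25.1 and 77.6 CPM at day 2 to 0.926, 0.0476 and 0.743 CPM at day 22 (log2 fold change -6.76, and -6.02 without replicate 2 of day 22), lowest in replicate 2 at day 22.

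The 15 largest rises among protein-coding genes at 20 CPM or more, with the same sign in all 3 lanes, held several genes of no list. DIPK1C had 0 counts at day 2 and 41.6, 4.66 and 33.3 CPM at day 22, at least 848-fold higher. GASK1B went from 0.104, 0.0616 and 0.154 CPM at day 2 to 123, 46.7 and 139 CPM at day 22 (log2 fold change 9.83, standard error 0.61, edgeR adjusted p = 1.13e-18). The potassium channel KCNA4, with 2 counts at day 2, was at 45.7, 10.7 and 60.0 CPM at day 22, a fold of 1820 (95% counting interval 504 to 15040). In these 3 genes, in DAPL1 (log2 fold change 8.79) and in ANKRD1 (log2 fold change 9.62, and 9.02 without replicate 1 of day 2 and 9.00 and 10.36 without replicates 1 and 2 of day 22) replicate 2 was the lowest of day 22. The 15 largest falls held, beside the pluripotency genes and metallothioneins, 5 others. IDO1, an enzyme that breaks down tryptophan, went from 115, 79.7 and 168 CPM at day 2 to 0.0463, 0.19 and 0.0572 CPM at day 22 (log2 fold change -10.25, and -9.65 and -11.07 without replicates 1 and 2 of day 22). LCK, a kinase known from T cells, went from 80.3, 122 and 87.4 CPM at day 2 to 0, 0.143 and 0.114 CPM at day 22 (log2 fold change -10.14, and -9.27 without replicate 1 of day 22). SCGB3A2, a secretoglobin, was at 59, 61.6 and 35.5 CPM at day 2, C13orf42 at 33.7, 36 and 29.9 CPM and DPEP3 at 19.8, 16.7 and 24.7 CPM, and each was near 0 in every day 22 library.

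The long non-coding RNAs named by the same rule at 5 CPM or more included antisense partners of eye field genes. LHX2-AS1 had 0 counts at day 2 and 6.07, 4.35 and 5.95 CPM at day 22, at least 175-fold higher. SIX3-AS1, with 2 counts at day 2, was at 40.7, 4.9 and 40.6 CPM at day 22, and TBX2-AS1 went from 0.182, 0.185 and 0.154 CPM at day 2 to 73.1, 27.6 and 103 CPM at day 22 (log2 fold change 8.42). SIX3-AS1 and TBX2-AS1 were lowest in replicate 2, as their partners were. The libraries keep strand, but whether the counting used it was not given in the sources used here. ESRG, a retroviral transcript of stem cells in the pluripotency list, went from 374, 322 and 572 CPM at day 2 to 0.278, 0.333 and 0.515 CPM at day 22 (log2 fold change -10.23, and -9.54 without replicate 1 of day 22). Among microRNA loci at 5 CPM or more, MIR3609 was the single rise, from 2.79, 4.9 and 3.24 CPM at day 2 to 10.6, 15.4 and 13 CPM at day 22 (log2 fold change 1.84, standard error 0.35, edgeR adjusted p = 3.61e-05). By TPM, the 10 highest protein-coding genes of each day were mostly histone, ribosomal, actin and housekeeping genes, with H1-5, a linker histone, first at day 2. Its mean was 5974 ± 553 TPM at day 2 and 2459 ± 1610 TPM at day 22 (log2 fold change -1.78). GAPDH was at 4526 ± 258 TPM at day 2 and 2971 ± 389 TPM at day 22 (log2 fold change -0.94, standard error 0.18, edgeR adjusted p = 2.87e-05).

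Whether these changes differ between laminins was tested through the interaction of matrix and day, in which the libraries of the matrices do not overlap. Between LN523 and LN323, 0 of 44852 genes (0%) had an adjusted p under 0.05 in edgeR, 949 had an unadjusted p under 0.05, and DESeq2 called 10 genes. Leaving out replicate 2 of day 2 on LN523 gave 1 gene in edgeR. Between LN523 and LN521, 2 genes (0.00446%) were called, SCRG1 and HPAT5, with 2085 at an unadjusted p under 0.05 and 10 called by DESeq2. SCRG1, a secreted peptide of cartilage and glia, was at 0, 0.0616 and 0 CPM at day 2 and 0.741, 4.71 and 2.06 CPM at day 22 on LN523, and at 1.11, 0.627 and 0.605 CPM and 0.885, 1.44 and 1.04 CPM on LN521, a difference in log2 fold change of 6.27 (standard error 1.11, edgeR adjusted p = 0.0313). HPAT5, a long non-coding RNA of stem cells, went on LN523 from 76.2, 62.5 and 31.7 CPM at day 2 to 0.0463, 0 and 0 CPM at day 22. It was at 33.7, 50.8 and 13 CPM and 2.52, 0.142 and 0.0549 CPM on LN521, a difference in log2 fold change of -5.95 (standard error 1.10, edgeR adjusted p = 0.0359). SCRG1 lost its call without any 1 of the day 2 libraries on LN523 or without replicate 3 of day 22, and HPAT5 without replicate 2 or 3 of day 2 or replicate 1 or 3 of day 22. Replicate 1 of day 22 on LN521 still held POU5F1 at 73.8 CPM and NANOG at 10.9 CPM, against at most 1.48 and 0.11 CPM in the other two, and without it HPAT5 was not called. Without replicate 2 of day 22 on LN523 the count against LN521 was 26, and DCT was among them. It was 7 without replicate 1 of day 22 and 0 without replicate 3 of day 22 or replicate 2 or 3 of day 2.

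PAX6, SIX6 and CRX were set side by side on the 3 matrices. PAX6 had a log2 fold change of 8.48 on LN523, 8.75 on LN323 and 8.81 on LN521. SIX6 had 9.34, 9.54 and 9.50 on the same matrices, and CRX had 4.44 (3.81 and 5.82 without replicates 2 and 3 of day 2), 4.61 and 5.43. The difference for CRX was -0.16 (standard error 0.94, edgeR adjusted p = 1) against LN323 and -0.99 (standard error 0.95, edgeR adjusted p = 1) against LN521. With standard errors of this size, differences of a few fold in genes at this level were not detectable.

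**Figure D5:**
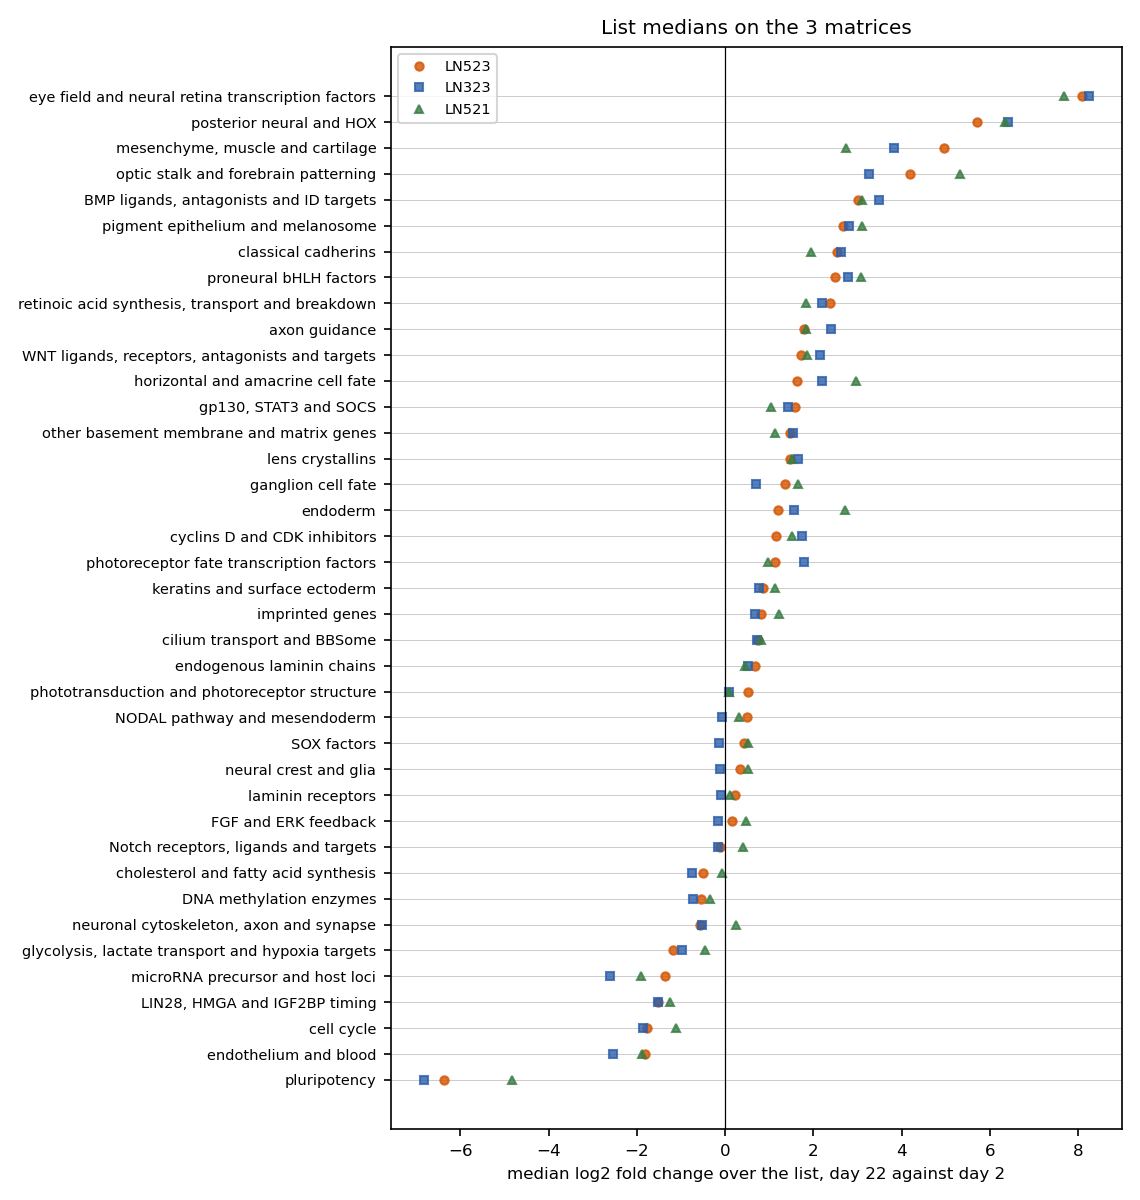
Median log2 fold change over each gene list, day 22 against day 2 (x axis), on LN523 (circles), LN323 (squares) and LN521 (triangles). The eye field median was 8.09 on LN523, 8.24 on LN323 and 7.69 on LN521, and the pluripotency median -6.37, -6.82 and -4.84.

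From day 22 to day 32 on LN523, 171 genes (0.381%) had an adjusted p under 0.05. PAX6 was at a mean of 717 CPM at day 32 (log2 fold change against day 22 0.22, standard error 0.23, edgeR adjusted p = 1), SIX6 at 302 CPM and POU5F1 at 1.64 CPM. CRX was at a mean of 23.1 CPM (log2 fold change against day 22 2.21, standard error 0.58, edgeR adjusted p = 0.0822), and RCVRN at 2.4 CPM (log2 fold change against day 22 4.01, edgeR adjusted p = 0.103). Of the 12 photoreceptor fate factors 5 rose between these days and 0 fell, and of the 34 genes of phototransduction and photoreceptor structure 3 rose and 0 fell. NEUROD1 rose from a mean of 1.13 to 34.4 CPM (log2 fold change 5.13, standard error 0.80, edgeR adjusted p = 1.36e-04), PRDM1 from 1.41 to 22.1 CPM (3.99, edgeR adjusted p = 5.03e-04), RBP3 from 0.799 to 32.8 CPM (5.38, edgeR adjusted p = 1.10e-04) and AIPL1 from 0.113 to 2.07 CPM (3.96, edgeR adjusted p = 0.0127).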

How the data were processed

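Stranded total RNA libraries of H1 cultures were read in pairs. Per the labels and the methods, the authors aligned reads with STAR 2.5.2b, counted them per gene with featureCounts 1.5.1 on hg38 with Ensembl release 79, removed ribosomal and mitochondrial genes, and deposited the counts with TPM values, for which the making is not given in the sources used here. Genes dropped by the authors lower each library's total, and mostly even counts are what separate counting of the mates of a pair would give.

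All 27 libraries, in 9 groups of 3, were fitted with edgeR 4.0.16 (TMM, quasi-likelihood, sequencing lane as a block, genes with a count sum above 1), and log2 fold changes, standard errors and Benjamini-Hochberg adjusted p come from that fit. A 2-fold null was tested with glmTreat. CPM values are TMM-scaled. The replicate number is the lane in the labels, and deviations from the group means correlated across same-lane pairs of day 2 and day 22 by 0.0364, 0.185 and 0.231 over 17115 genes. A gene with 0 counts in a group was set against a floor of 3 counts over its 3 libraries (0.031 CPM at day 2, 0.025 CPM at day 22), and 95% intervals of few counts cover counting error only. Both take each count as separate. If mates were counted separately, the intervals are too narrow and the folds given as at least a value are too high. Alternatives were DESeq2 1.42.0, limma 3.58.1 on log2 TPM, RLE scaling, filterByExpr, no block, fewer libraries and each library left out in turn.

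The 39 lists (791 entries) and the members named were chosen with earlier results of these data known, and list members absent from the count table were not analysed here. Named are the largest, best known and opposing members of each list, the 15 largest changes each way among protein-coding genes at 20 CPM or more, 5 each way among long non-coding RNAs and microRNA loci at 5 CPM or more, the 10 highest genes by TPM, and genes whose change differed between matrices. Of these, loci without a gene symbol, housekeeping genes and some list members are left unnamed, and a few genes are not reported here. Depth was 27855193 to 42473603 counts per library, and the tests across genes were checked on simulated data. The simulated libraries had a smaller spread and none that stood apart, so this check does not give error rates for the real libraries.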

Additional observations from a re-analysis of the deposited data

Results flagged for a closer look

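The change from day 2 to day 22 in 2 genes differed between LN523 and LN521 by the interaction test. SCRG1 rose more on LN523, by 6.27 on the log2 scale, and HPAT5 differed by -5.95, being lower on LN523 at day 22. For SCRG1 the day 2 levels on LN523 were at or near 0 in all 3 libraries, and for HPAT5 the difference was -3.55 and not called (edgeR adjusted p = 1) without replicate 1 of day 22 on LN521. Neither call was made by every alternative.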

How the results depend on the processing

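Of the 9751 genes called from day 2 to day 22, alternatives gave 8064 to 11542, and of the 4421 over 2-fold, 3682 to 4684, all within 1.5 times, while the falls alone, 4571, numbered 2989 without replicate 3 of day 22. Leaving out each library in turn gave 8064 to 9307 and 3682 to 4447. Without the replicate block the counts were 9627 and 4266, 0 against LN323 and 0 against LN521. Against LN323 the count of 0 became 1 without replicate 2 of day 2, and 10 with DESeq2. Against LN521 the count of 2 ranged from 0 to 26 when a library was left out. It was 1 with RLE scaling, 0 with the filterByExpr filter, 10 with DESeq2, 1 without replicate 1 of day 22 on LN521, and 157 without lane 2 of day 22 on LN523 and LN323, the last 2 alternatives chosen after seeing the data. Limma on TPM moved 17 to 18 of 78 list counts by over 1.5 times and gave 5 or 13 HOX rises against 21, where the other alternatives moved 0 to 11. The cause was not tested. Genes near the floor of 3 counts over a group can carry large fitted changes from few reads, and with 3 libraries a group and replicate 2 of day 22 apart, small changes were not detectable.

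Of 235 named genes, 200 kept their direction and their side of the threshold in every alternative run on them, 22 lost a call in at least 1, 5 gained one, and 10 changed sign in at least 1, none of them past the threshold in the main analysis. Leaving out 1 library moved 85 of the 217 called by over 1.5 times. Calls were also lost with all libraries kept. DESeq2 did not call CYP26A1, LAMA5, LEFTY2, PRDM1, RBP3, RCVRN and VAX1 (DESeq2 adjusted p = 0.0543 to 0.205). With the filterByExpr filter CYP26A1, LEFTY2, POU4F2, PRDM1, RBP3 and RCVRN were not called. The genes that changed sign are given here as log2 fold changes. DCX ranged from -0.097 to 1.35 with a library left out. DHRS3 ranged from -0.41 to 2.14 with a library left out. MKI67 ranged from -0.69 to 0.078 with a library left out. NKX2-1 ranged from -1.33 to 1.83 with a library left out. NOTCH1 was 0.076 and 0.077 in limma. NRL ranged from -0.30 to 0.15 with a library left out and was 0.069 with the 6 libraries alone and 0.20 and 0.34 in limma. PTPRC ranged from -4.00 to 2.06 with a library left out and was -0.84 with the 6 libraries alone. SNCG ranged from -0.68 to 1.05 with a library left out and was -0.11 with the 6 libraries alone. TET1 ranged from -0.30 to 0.12 with a library left out and was 0.087 and 0.088 in limma. ZIC2 ranged from -0.22 to 0.52 with a library left out and was 0.093 without the replicate block, 0.13 with the 6 libraries alone and no replicate block and 0.13 in limma.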
